A study of Mus musculus with 9 samples.

Results

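The comparison described here set the brightest Nur77/Nr4a1-GFP reporter cells among semimature SP4 thymocytes (GFPhi) against the cells of medium brightness (GFPmed), to find what changes at the top of the reporter range. It used 6 of the 9 samples of the study, 3 GFPhi and 3 GFPmed, and compared the 28594 of 41978 listed genes that reached a TPM (transcript level scaled to the sample total) of at least 1 in 3 or more of these 6 samples. The 3 samples of the dimmest cells (GFPlo) entered as a reference for the step below GFPmed. All animals were of the genotype Nur77-eGFP BAC Tg, so every group carried the same bacterial artificial chromosome transgene, in which Nr4a1 regulatory sequence drives eGFP. The reporter therefore reads the activity of that transgene and not Nur77 protein. From thymus, live cells were sorted as CD4+, CD8-, CD25-, CD69+ and CD24+, and then by GFP into the lowest, a medium and the highest 10% of the distribution, in biological triplicate. The study text gives the CD24 gate as low in its results and as high in its methods and a figure legend, while the labels give CD24+. For each sample 10000 cells were sorted, and cDNA was made with SMART-seq v4 and turned into libraries with the NexteraXT kit. For its mice in general the study gives both sexes and an age range in weeks, while the age, sex and number of mice behind each sample are not given in the sources used here.

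Nr4a1 encodes NUR77, an orphan nuclear receptor whose transcription is switched on within the first hours of T-cell receptor (TCR) signalling, and a GFP transgene under its control is widely used as a record of how strongly a T cell has recently been stimulated. In the thymus, CD4 single-positive (SP4) cells that have passed positive selection still carry CD69 and CD24 and scan self peptides in the medulla. Cells that bind self peptides strongly at this stage can be deleted, a process in which the BH3-only protein BIM takes part, or can become regulatory T (Treg) cells or anergic cells.

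Between 7456390 and 14925773 reads per sample (median 9414613) could be recovered from the TPM values, and between 23486 and 29902 genes per sample had a TPM of at least 1. The GFPhi replicate 2 sample had the fewest such genes, although its 10959720 reads were above the median. Samples of the same group correlated across genes with an r of 0.860 to 0.908, and GFPhi with GFPmed samples with an r of 0.858 to 0.909, so the ranges overlapped. The labelled cell type was checked with fixed marker lists, in RPM (reads scaled to a common total per sample, without regard to length). The 8 SP4 markers summed to 4895 to 5276 RPM in GFPhi and 4830 to 5164 RPM in GFPmed samples. Cd4 had 474 ± 28.9 TPM (SD, n = 3) in GFPhi and 562 ± 13.2 TPM in GFPmed samples. Cd24a had 96.6 ± 15.2 and 104 ± 5.56 TPM, and Cd69 had 216 ± 28.7 and 366 ± 26.8 TPM. Cd69, a gene used for the sort, was thus lower in every GFPhi sample, with a log2 fold change of -0.76 (adjusted p = 0.0300). Markers of CD8 lineage or double-positive thymocytes summed to 92.4 to 115 RPM in GFPhi and 132 to 137 RPM in GFPmed samples. B-cell markers summed to 83.8 to 113 and 112 to 151 RPM, which overlapped narrowly, and thymic epithelial markers to 35.1 to 44.6 and 28.7 to 32.8 RPM. Myeloid markers (31.9 to 47.4 against 38.7 to 44.8 RPM) and erythroid markers (2.55 to 8.52 against 3.89 to 6.98 RPM) overlapped between the groups, as did those of gamma-delta T, NK and invariant NKT cells (31.8 to 36.0 against 35.7 to 44.8 RPM). No marker that was found in the data was at 0 in all 6 samples. The sums held 3 of 6 listed erythroid, 7 of 8 thymic epithelial and 5 of 6 gamma-delta T, NK and invariant NKT markers. The samples are bulk populations, so a gene expressed in more cells and a gene expressed at a higher level per cell cannot be told apart.

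**Figure D1:**
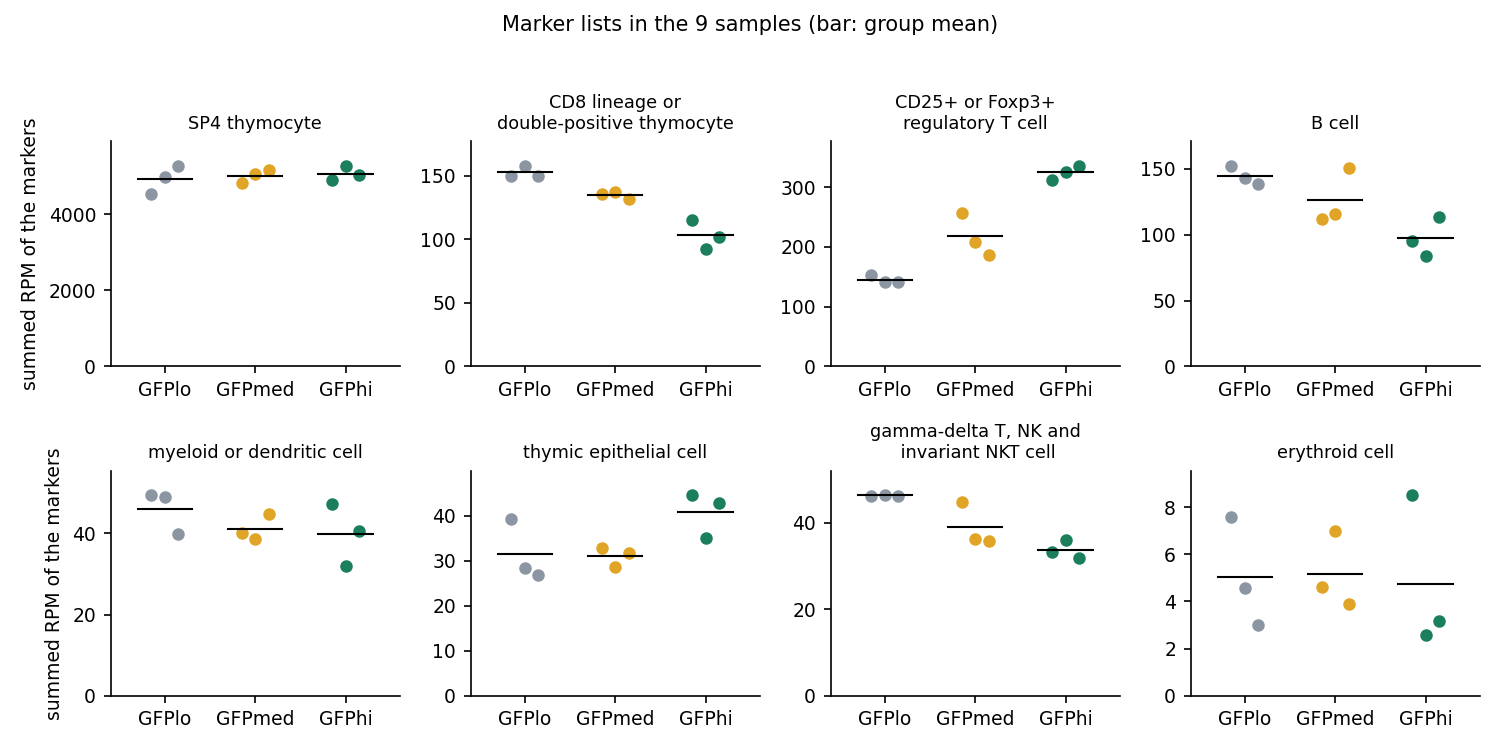
Summed RPM (vertical axis, from 0) of each marker list in the 9 samples, by group, with bars at the group means. The SP4 markers lie between 4528 and 5276 RPM in all samples, the Treg markers are highest in GFPhi (312 to 336 RPM) and the CD8 lineage markers lowest in GFPhi (92.4 to 115 RPM).

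A gene was called a differentially expressed gene (DEG) at an absolute log2 fold change (log2FC) of at least 1 on log2(TPM + 1) and an adjusted p from limma of at most 0.05 (Benjamini-Hochberg, all genes tested). Because of the pseudocount of 1, changes of low genes come out too small on this scale. At these limits 172 genes were higher in GFPhi than in GFPmed (0.602% of those tested) and 47 were lower (0.164%). The median log2FC was 1.52 among the higher and -1.47 among the lower genes, against -0.07 over all genes tested. In every one of the 172 higher DEG the 3 GFPhi samples lay above the 3 GFPmed samples, as they did in 7.47% of all genes, and in every one of the 47 lower DEG they lay below, as in 9.82% of all genes. For a gene under a TPM of 1 in all 3 samples of a group, the filter itself set this order. Rln3, Tmem121b and Xcl1, below, were such genes and were tested through their GFPhi samples alone. Of the higher DEG, 138 were protein-coding and 37, some of them protein-coding too, carried predicted or clone names or were small RNAs or pseudogenes, and of the lower DEG 17 were of this second kind. Fewer than 50 reads in each of the 6 samples stood behind 19 of the higher and 11 of the lower DEG. The number of higher DEG depended on single samples: it was 99 without GFPhi replicate 2, 79 without GFPhi replicate 3, 95 without GFPmed replicate 2 and 113 without GFPmed replicate 3. The number of lower DEG was 25, 24 and 28 without GFPmed replicates 1, 2 and 3, respectively. With no limit on the fold change, 292 genes were higher and 206 lower, so the share of higher genes among the calls went from 78.5% to 58.6%.

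**Figure D2:**
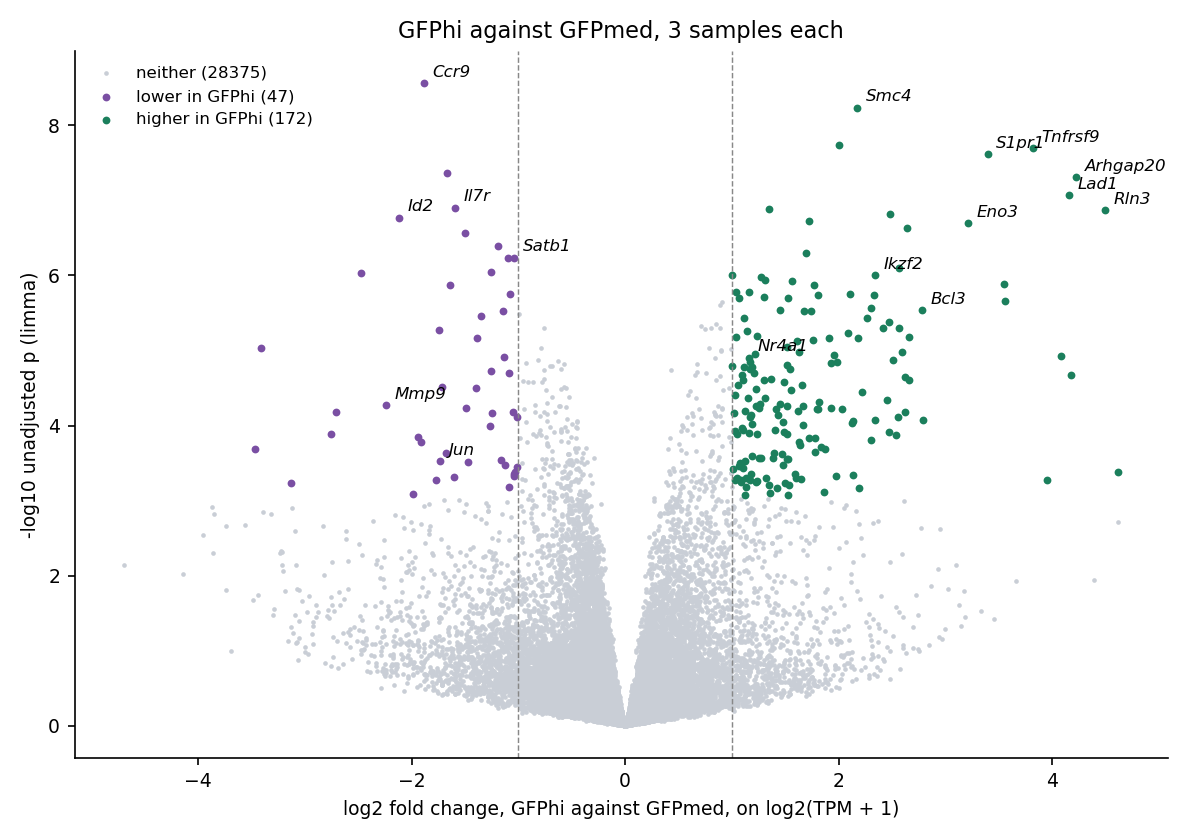
Each point is 1 of the 28594 genes tested, with the log2FC of GFPhi against GFPmed on the horizontal axis (dashed lines at -1 and 1) and the -log10 of the unadjusted limma p on the vertical axis. The 172 higher DEG reach a log2FC of 4.5 at Rln3 among the genes labelled, and Ccr9 has the smallest p of all.

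Nr4a1 (chromosome 15 of GRCm38, 101254269 to 101274795), the gene the transgene reports, was the check of the sort labels. It had 767, 917 and 836 TPM in the 3 GFPhi samples, 366, 351 and 406 TPM in the GFPmed samples and 213, 187 and 251 TPM in the GFPlo samples. No value of a group reached into the next, and the log2FC of GFPhi against GFPmed was 1.16 (SE 0.12, adjusted p = 0.00400). With median-of-ratios scaling the log2FC was 1.22 and the adjusted p 0.0739, which ended the call. Nr4a3, which encodes the related receptor NOR1, had 14.4, 17.1 and 19.6 TPM in GFPhi and 6.65, 5.79 and 7.44 TPM in GFPmed samples, a log2FC of 1.24 (SE 0.18, adjusted p = 0.0149). This call was lost without GFPhi replicate 2, GFPhi replicate 3, GFPmed replicate 1 or GFPmed replicate 2. Nr4a2, encoding NURR1, had 7.43, 9.32 and 12.8 TPM in GFPhi and 7.68, 7.87 and 7.41 TPM in GFPmed samples, so its groups overlapped (log2FC 0.30, 95% interval -0.25 to 0.84, adjusted p = 0.780).

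Of the 8 tested NR4A, EGR and NAB genes, Nr4a1 and Nr4a3 were the 2 higher DEG and none was a lower DEG. Egr1, which encodes a zinc-finger factor induced by ERK signalling, had 566, 604 and 537 TPM in GFPhi and 881, 831 and 820.3 TPM in GFPmed samples. All GFPhi samples lay below all GFPmed samples, with a log2FC of -0.57 (SE 0.06, adjusted p = 0.00442), which is short of the fold limit. Egr2, added after its values were seen, had 209 ± 16.1 TPM in GFPhi and 319 ± 31.6 TPM in GFPmed samples (log2FC -0.61, adjusted p = 0.0141). Nab2, encoding a corepressor of the EGR factors, had 478 ± 77.9 and 667 ± 25.3 TPM (adjusted p = 0.0991). Of 12 tested AP-1, BATF, IRF and MAF factors, 1 was a lower DEG, while limma-voom called 2 higher and 1 lower. Jun, the prototype AP-1 subunit, had 1.94, 4.09 and 2.80 TPM in GFPhi and 13.6, 8.28 and 14.4 TPM in GFPmed samples (log2FC -1.73, SE 0.28, adjusted p = 0.0262), from 13 to 109 reads per sample. The Jun call was lost when GFPhi replicate 1 or 3, GFPmed replicate 1 or 3 or GFPlo replicate 2 or 3 was left out. Junb was level at 308 ± 3.92 and 313 ± 23.0 TPM, and Jund had 770.3 ± 74.2 and 536 ± 40.4 TPM (log2FC 0.52, adjusted p = 0.151).

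**Figure D3:**
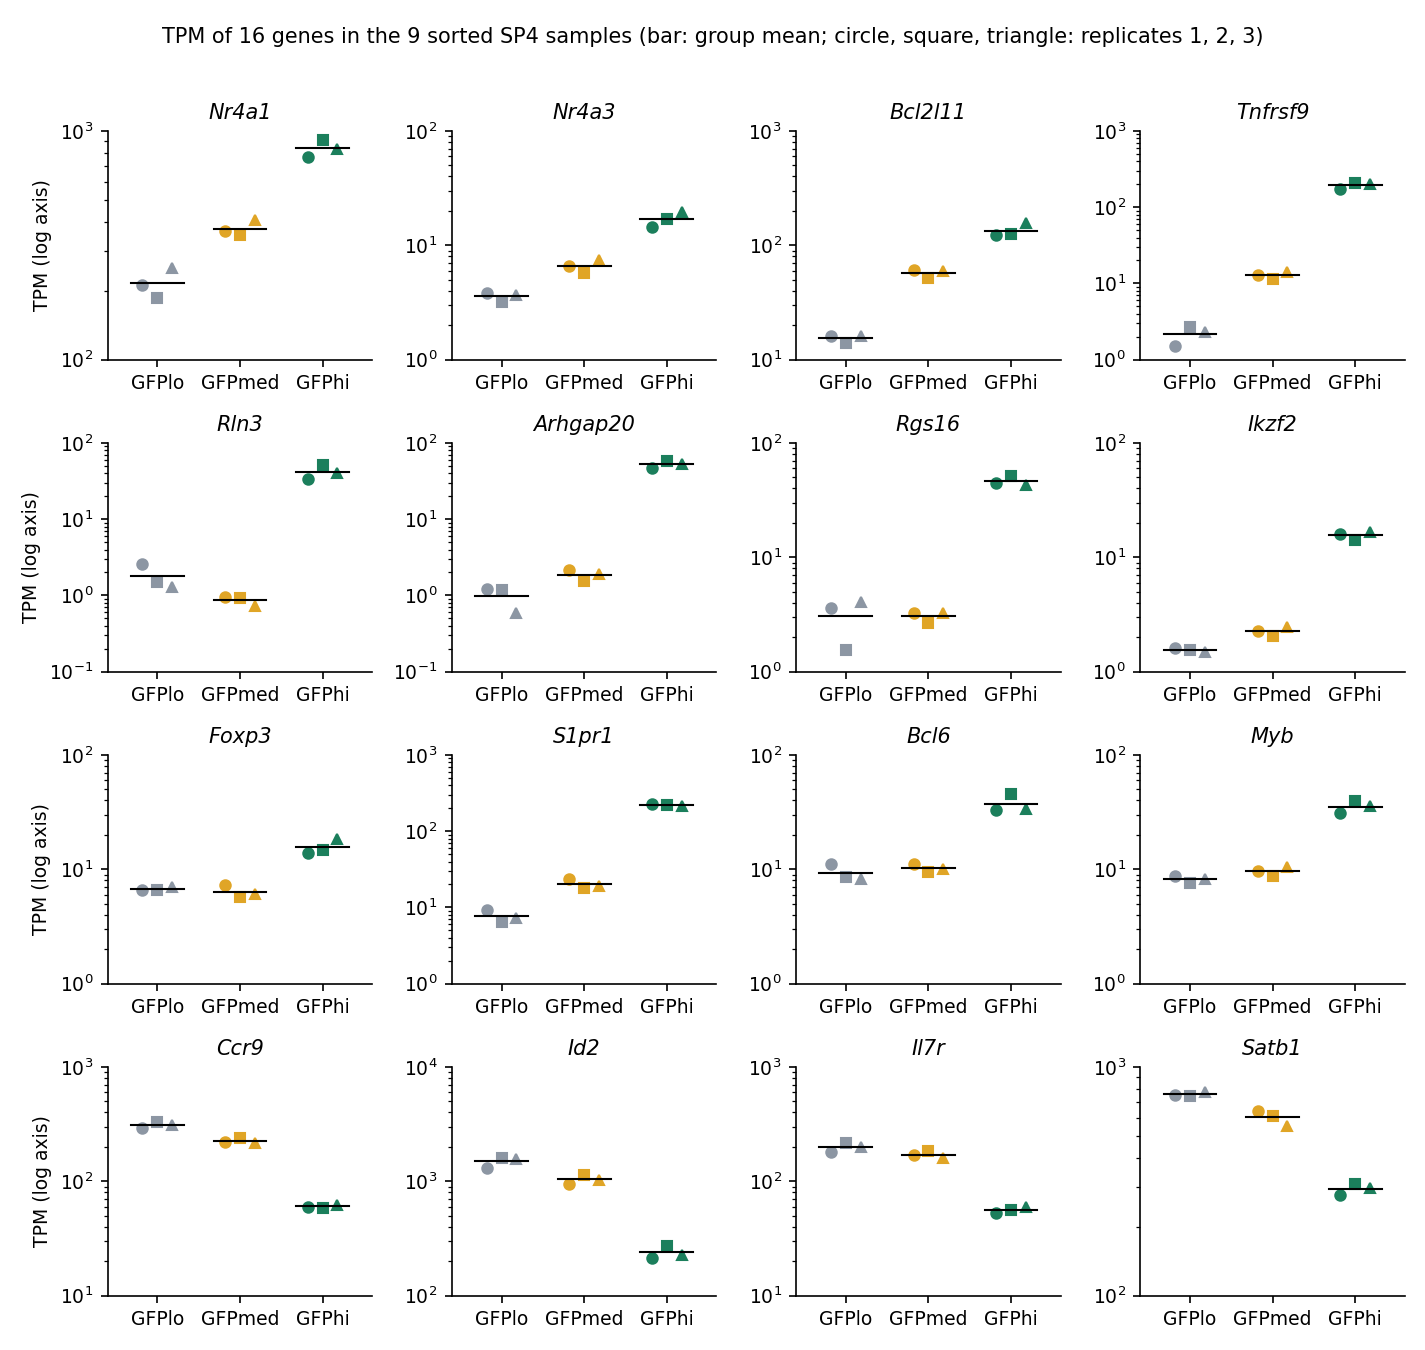
TPM (log axis) of 16 genes in the 9 samples, with GFPlo, GFPmed and GFPhi from left to right, a symbol per replicate and a bar at the group mean. Nr4a1, Bcl2l11 and Tnfrsf9 rise over both steps, whereas Rln3, Arhgap20, Rgs16, Ikzf2, Bcl6 and Myb are set apart mainly in GFPhi, and Ccr9, Id2, Il7r and Satb1 are lowest there.

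To ask which changes belong to the top of the range, the step from GFPmed to GFPhi (upper step) was compared with the step from GFPlo to GFPmed (lower step) in the same limma fit. Both steps share the GFPmed samples, so the values are given side by side and the difference of the steps was tested for each gene. In the lower step 17 genes were higher in GFPmed (0.0595% of those tested) and 1 was lower (0.0035%), against 172 and 47 in the upper step. These counts are not like for like, since the filter used GFPhi and GFPmed samples only. Genes that reached a TPM of 1 in GFPlo alone were not tested. The steps differed at an adjusted p of at most 0.05 in 6 genes (0.021%), all of them DEG of the upper step. Of these, 3 rested on more than a few reads: Rln3, Arhgap20 and Ccr9. The others, Mir451b, Gm13314 and Gm22783, rested on at most 4 reads in any sample. Their lower step went the opposite way, so a larger upper step was not shown for them. In the counts that follow, a DEG is called steeper when its step difference has the sign of its upper step, whatever the size of its lower step. At an unadjusted p under 0.05 the steps differed in 1490 of the 28594 genes tested. That is about the share this threshold lets through when no gene differs. With limma-voom on the recovered reads, 33 higher and 21 lower DEG were steeper in the upper step, Rln3, Arhgap20 and Ccr9 among them. The 3 steeper rises fell to 0 without GFPhi replicate 1, 2 or 3 or GFPmed replicate 1 or 3 and to 1 without GFPmed replicate 2, and the 3 steeper falls to 0 without GFPhi replicate 3 or without a single GFPmed replicate, whichever it was. With the replicate number as a block no step difference passed (0 rises and 0 falls).

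Rln3 (chromosome 8, 84042929 to 84045000, minus strand) encodes relaxin-3, a peptide hormone best known from the brain. It had 33.3, 51.7 and 40.9 TPM in GFPhi samples, from 142 to 197 reads, and 0.960, 0.933 and 0.737 TPM in GFPmed samples, from 2 to 5 reads. The GFPlo samples were as low as GFPmed, at 2.58, 1.48 and 1.29 TPM. Its upper step was 4.5 (SE 0.25, adjusted p = 0.000351) and its lower step -0.54 (95% interval -1.12 to 0.03), a difference of 5.04 (adjusted p = 0.0249). Arhgap20 (chromosome 9, 51765337 to 51853856, plus strand) encodes a GTPase-activating protein. It had 47.2, 58.2 and 53.4 TPM in GFPhi, 2.18, 1.52 and 1.93 TPM in GFPmed and 1.21, 1.17 and 0.596 TPM in GFPlo samples. The upper step of 4.23 (SE 0.20) exceeded the lower step of 0.54 (95% interval 0.07 to 1.02) by 3.69 (adjusted p = 0.0393). Arhgap20os, an antisense gene that overlaps it, was also higher (log2FC 2.09, adjusted p = 0.00252), and whether reads were counted by strand is not given in the sources used here. Ccr9 (chromosome 9, 123678439 to 123784330, plus strand) encodes the receptor for the thymic chemokine CCL25. It had 59.9, 59.0 and 62.1 TPM in GFPhi, 222, 237 and 218 TPM in GFPmed and 292, 328 and 314 TPM in GFPlo samples. It fell 3.74-fold over the upper step (log2FC -1.89, SE 0.06, adjusted p = 7.76e-05), whereas GFPlo was 1.38-fold above GFPmed, and the steps differed by -1.43 (adjusted p = 0.0139). Lztfl1, which lies within the annotated span of Ccr9 on the other strand, was lower too (log2FC -1.10, adjusted p = 0.000795).

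The 250 bases before the RefSeq start sites of these 3 genes are shown because their upper steps differed most clearly from the lower ones. They are from GRCm38.p6, written 5′ to 3′ on the strand of the gene, and span chr8:84044980-84045229 (minus strand) for Rln3, chr9:51765101-51765350 (plus strand) for Arhgap20 and chr9:123766961-123767210 (plus strand) for Ccr9. Capitals mark a match to AAAGGTCA, the site bound by NR4A monomers (NBRE), or to TGANTCA, the AP-1 site, on either strand.
Rln3: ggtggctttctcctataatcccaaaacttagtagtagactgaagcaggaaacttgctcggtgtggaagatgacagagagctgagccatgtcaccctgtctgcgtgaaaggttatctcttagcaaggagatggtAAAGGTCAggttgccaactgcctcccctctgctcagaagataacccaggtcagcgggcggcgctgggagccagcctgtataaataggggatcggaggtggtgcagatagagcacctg
Arhgap20: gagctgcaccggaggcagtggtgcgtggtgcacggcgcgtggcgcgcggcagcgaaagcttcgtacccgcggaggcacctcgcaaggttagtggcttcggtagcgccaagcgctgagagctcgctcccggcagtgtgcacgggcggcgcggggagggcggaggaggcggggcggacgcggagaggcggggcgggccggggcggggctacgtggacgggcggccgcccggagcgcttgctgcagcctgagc
Ccr9: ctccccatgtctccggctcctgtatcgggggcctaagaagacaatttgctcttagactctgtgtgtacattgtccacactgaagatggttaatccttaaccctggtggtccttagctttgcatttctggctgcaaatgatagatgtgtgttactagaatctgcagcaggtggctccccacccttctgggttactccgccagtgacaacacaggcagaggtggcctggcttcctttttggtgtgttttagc

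The Rln3 window held the NBRE letters 117 bases before the start site, and the windows of Arhgap20 and Ccr9 held neither motif. Over windows of 300 bases (250 before and 50 after the start), the NBRE letters were in 2 of the 117 higher DEG with a RefSeq window (1.71%), Rln3 and Tgif1, in 0 of the 26 lower DEG with one against 1.70% of all genes with a window and 1.48% of the genes tested. The AP-1 letters were in 7 of 117 higher DEG (5.98%) and in 6 of 26 lower DEG (23.1%), among them Ccr4, Ctla2a and Il17rb, against 8.97% of all genes with a window and 7.33% of the genes tested. The site of Il17rb also lies in the window of Chdh, a lower DEG 126 bases away on the opposite strand, and was counted for both. The letters GNGGGNGNG of an EGR site, searched in the same way, were in 78 of 117 higher DEG (66.7%) and in 15 of 26 lower DEG (57.7%), against 46.2% and 56.0%. No test was made of these shares. A match says only that the letters are there, and binding was not measured.

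How far the DEG already moved below GFPmed was read from the interval of the lower step. Apart from the 6 genes above, no DEG had a step difference that passed in limma. For the others, here and below, the steps are therefore set side by side as description only. By limma-voom the difference passed in more genes, Rgs16, Ikzf2, Pdcd1, Bcl6 and Myb among them. The 95% interval of the lower step lay within 2-fold either way in 101 of the 172 higher DEG (58.7%) and in 34 of the 47 lower DEG (72.3%), against 51.9% of all genes tested. The share among the higher DEG was thus near that of all genes, and under other settings it was lower, with 91 of 264 by limma-voom, 65 of 154 with a pseudocount of 0.1, 44 of 95 with median-of-ratios scaling and 68 of 142 with a TPM filter of 5. The count of higher DEG of this kind was 63, 54 and 44 without GFPhi replicates 1, 2 and 3 and 63, 51 and 57 without GFPmed replicates 1, 2 and 3, and that of lower DEG was 19 and 22 without GFPmed replicates 1 and 2. The median lower step was 0.36 in the higher and -0.30 in the lower DEG. Rgs16, encoding a regulator that speeds the shut-off of G-protein signals, had 44.4, 52.0 and 43.3 TPM in GFPhi, 3.26, 2.64 and 3.28 TPM in GFPmed and 3.58, 1.56 and 4.05 TPM in GFPlo samples, with an upper step of 3.55 (SE 0.27, adjusted p = 0.00120) and a lower step of 0.06 (95% interval -0.56 to 0.67). Tmem121b, a transmembrane protein gene, had 9.86, 12.1 and 17.1 TPM in GFPhi but at most 0.265 TPM (2 reads) in a GFPmed sample, with an upper step of 3.56 (adjusted p = 0.00148) and a lower step of -0.12 (95% interval -0.78 to 0.54). Eno3, the muscle-type enolase of glycolysis, had 167, 238 and 187 TPM in GFPhi, 24.6, 18.9 and 17.5 TPM in GFPmed and 10.8, 12.4 and 15.3 TPM in GFPlo samples (upper step 3.22, lower step 0.62).

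In contrast, 11 of the 172 higher DEG also passed the thresholds in the lower step: Bcl2l11, Bcl3, Cyth4, Gadd45b, Klf2, Lad1, S1pr1, Smc4, Tnfrsf18, Tnfrsf4 and Tnfrsf9. None of the 47 lower DEG did. Lad1 (chromosome 1, 135818598 to 135833342), encoding the filament-anchoring protein ladinin, had 191, 223 and 197 TPM in GFPhi, 10.5, 7.57 and 14.1 TPM in GFPmed and 0.828, 1.42 and 1.34 TPM in GFPlo samples. Its upper step was 4.16 and its lower step 2.39 (adjusted p = 0.0171), and the difference of 1.77 missed the threshold (adjusted p = 0.441). Smc4, a core subunit of the condensin complexes, rose from 80.1 ± 5.66 TPM in GFPmed to 366 ± 29.7 TPM in GFPhi samples (upper step 2.18, adjusted p = 8.29e-05; lower step 1.02). Its neighbours Ift80 and Trim59, which lie 167 and 664 bases away on the opposite strand, were higher DEG as well. Bcl2l11 (chromosome 2, 128126038 to 128162547), encoding the pro-apoptotic protein BIM, had 123, 126 and 156 TPM in GFPhi, 60.8, 51.3 and 59.8 TPM in GFPmed and 16.3, 13.9 and 16.2 TPM in GFPlo samples. For Bcl2l11 the lower step of 1.83 (adjusted p = 0.00520) was the larger value and the upper step was 1.21 (adjusted p = 0.00375), with a difference of -0.61 that missed the threshold (adjusted p = 0.835).

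**Figure D4:**
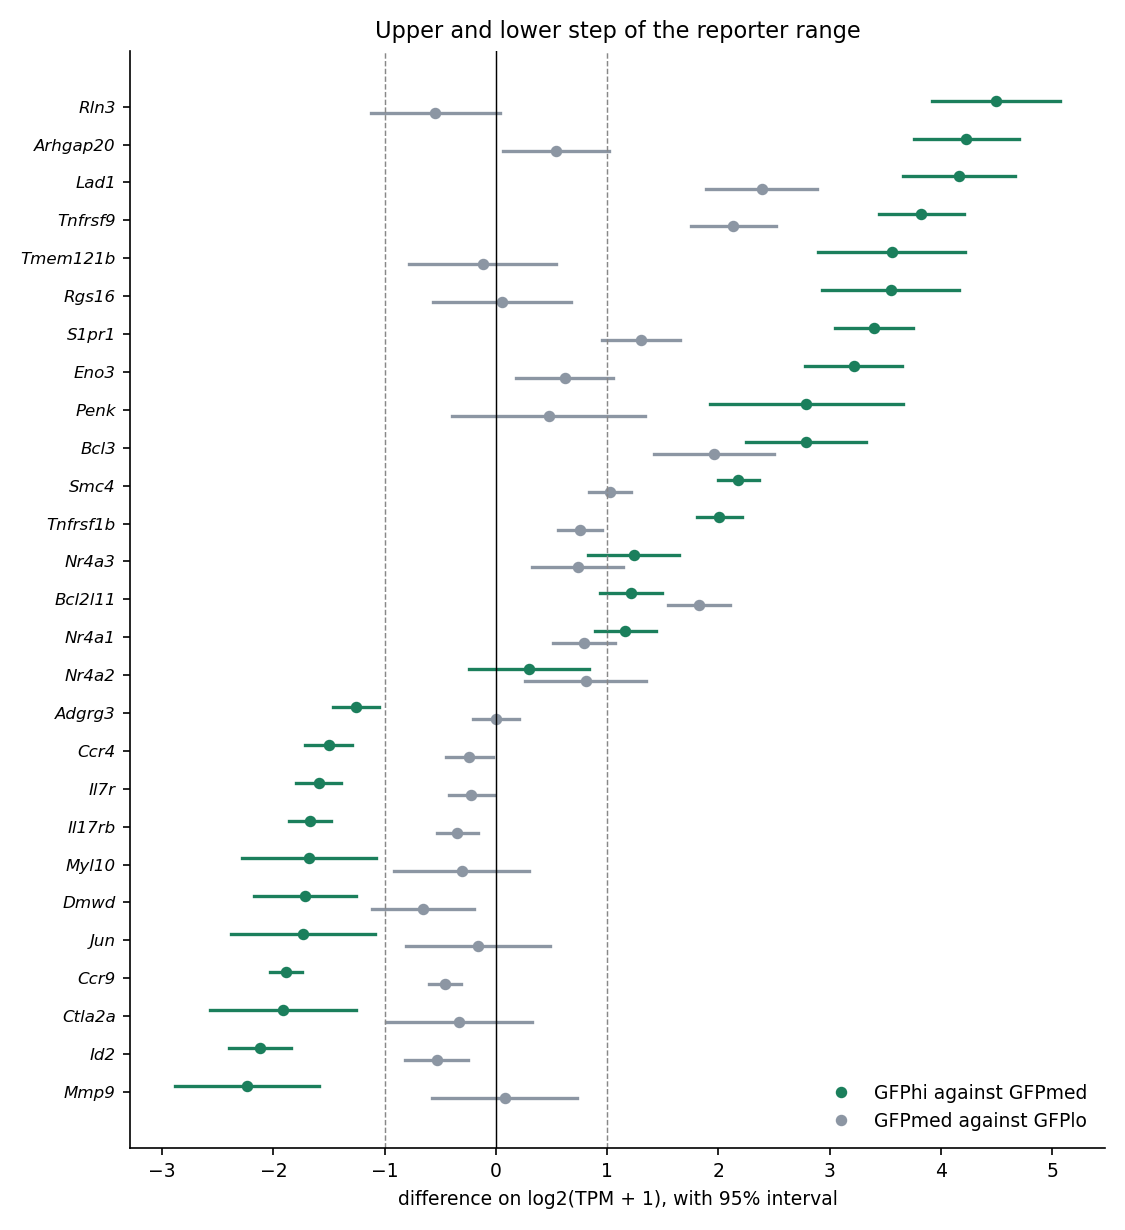
Upper step (GFPhi against GFPmed, green) and lower step (GFPmed against GFPlo, grey) with 95% intervals on log2(TPM + 1), for the NR4A genes, Bcl2l11, the largest rises and falls and the genes with the smallest p of the step difference, with dashed lines at -1 and 1. The pair lies far apart for Rln3 (4.5 and -0.54) and Arhgap20 (4.23 and 0.54) and close together for Nr4a1 (1.16 and 0.79).

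Among cell-surface receptors, several costimulatory and inhibitory genes rose. Of 14 tested TNF receptor superfamily genes, 5 were higher DEG and none was lower, with a list median of 0.11. Tnfrsf9, encoding the costimulator 4-1BB, had 174, 207 and 202 TPM in GFPhi and 13.01, 11.3 and 14.1 TPM in GFPmed samples (log2FC 3.82, SE 0.16, adjusted p = 0.000137). Tnfrsf25, encoding death receptor 3, had 84.0, 125 and 90.9 against 15.9, 21.9 and 18.8 TPM (log2FC 2.33, adjusted p = 0.00137). Tnfrsf1b, encoding TNF receptor 2, had 74.6, 76.3 and 76.4 against 17.5, 17.4 and 19.4 TPM (log2FC 2.01, adjusted p = 0.000137), and its lower step was 0.76. As in every higher DEG, GFPhi and GFPmed did not overlap in any of the 5. Tnfrsf4, encoding OX40, rose 3.29-fold and Tnfrsf18, encoding GITR, rose 2.01-fold (adjusted p = 0.00454), and both had about the same lower step, at 3.26-fold and 2.04-fold. The Tnfrsf18 call was lost without GFPhi replicate 2 or GFPmed replicate 1 or 2. Cd27, with 0.11, and Tnfrsf1a, with -0.57 (adjusted p = 0.0544), were not DEG. None of the 11 tested TNF superfamily ligands was a DEG in limma, although limma-voom called 2 higher. An unadjusted limma p under 0.05 was seen in 7 of the 11, against 3196 of the 28594 genes tested. Lta, encoding lymphotoxin alpha, had 148 ± 19.2 TPM in GFPhi and 81.1 ± 4.10 TPM in GFPmed samples (log2FC 0.85, adjusted p = 0.0109), short of the fold limit. Tnfrsf4 and Tnfrsf18 are members of the list of Treg genes too, and the Treg markers were higher in GFPhi (312 to 336 against 187 to 257 RPM), whose part in these rises was not tested.

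Of 14 tested inhibitory receptor and ligand genes, 3 were higher DEG and none lower (list median 0.38). Ctla4, which competes with CD28 for its ligands, had 13.6, 11.9 and 14.2 TPM in GFPhi and 3.26, 2.64 and 2.34 TPM in GFPmed samples (log2FC 1.93, SE 0.20, adjusted p = 0.00442). Cd200, a ligand of an inhibitory receptor, had 40.3, 44.9 and 40.3 against 12.3, 12.3 and 12.7 TPM (log2FC 1.67, adjusted p = 0.00171). Pdcd1, encoding PD-1, had 35.8, 42.1 and 46.2 TPM in GFPhi, 22.1, 17.9 and 19.3 TPM in GFPmed and 19.2, 20.6 and 20.3 TPM in GFPlo samples. Its upper step was 1.03 (SE 0.12, adjusted p = 0.00774) and its lower step -0.02 (95% interval -0.31 to 0.26), and the call was lost without GFPhi replicate 3 or GFPmed replicate 2. Cd5 and Cd6, scavenger receptors that track TCR signal strength, had log2FC of 0.89 (adjusted p = 0.00523) and 0.85 (adjusted p = 0.00227) and so missed the fold limit. In the list of 16 tested anergy-linked enzymes and adaptors the only DEG was Nt5e, which encodes the ectonucleotidase CD73. It had 5.58, 4.76 and 6.13 TPM in GFPhi and 0.699, 1.05 and 1.61 TPM in GFPmed samples (log2FC 1.63, SE 0.24, adjusted p = 0.0175), a call lost without GFPhi replicate 1 or 3 or GFPmed replicate 1 or 2. Ctla4 and Nt5e are also in the list of Treg genes, whose markers moved with them as given above.

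The genes listed for Treg cells had the highest median of the lists, although CD25+ cells had been excluded by the sort. Of 19 tested, 11 were higher DEG (Ctla4, Foxp3, Ikzf2, Ikzf4, Il2ra, Il2rb, Nt5e, Penk, Swap70, Tnfrsf18 and Tnfrsf4) and none was lower, with a list median of 1.35, while limma-voom called 12 higher and 1 lower. Foxp3, the lineage factor of Treg cells, had 13.95, 14.8 and 18.4 TPM in GFPhi, 7.27, 5.69 and 6.03 TPM in GFPmed and 6.57, 6.65 and 7.04 TPM in GFPlo samples. Its upper step was 1.19 (SE 0.16, adjusted p = 0.0127) and its lower step -0.09 (95% interval -0.46 to 0.29), but the difference of its steps did not pass in limma. Ikzf2, encoding HELIOS, had 15.9, 14.3 and 16.5 TPM in GFPhi, 2.25, 2.06 and 2.46 TPM in GFPmed and 1.62, 1.54 and 1.49 TPM in GFPlo samples, with an upper step of 2.35 (SE 0.17, adjusted p = 0.00109) and a lower step of 0.35 (95% interval -0.04 to 0.74). Il2ra, which encodes CD25 itself, had 8.11, 9.85 and 11.2 against 1.74, 1.5 and 2.01 TPM (log2FC 1.96, adjusted p = 0.00383). Il2rb, encoding the beta chain shared by the IL-2 and IL-15 receptors, had 75.6, 99.6 and 77.8 against 14.5, 10.3 and 13.4 TPM (log2FC 2.64, adjusted p = 0.000419). As in every higher DEG, GFPhi samples lay above GFPmed samples for each of these 4 genes. Penk, encoding proenkephalin, had 14.9, 12.2 and 20.5 against 0.495, 2.13 and 1.90 TPM (log2FC 2.79, SE 0.37, adjusted p = 0.0119, lost without GFPhi replicate 3). Members that did not follow were Gpr83, with 101 ± 8.12 TPM in GFPhi and 113 ± 27.1 TPM in GFPmed samples, Izumo1r, encoding folate receptor 4, with 143 ± 17.9 and 123 ± 2.68 TPM, and Nrp1, added after its values were seen, with 1.16 ± 0.401 and 2.32 ± 0.159 TPM (log2FC -0.63, adjusted p = 0.246). The 4 markers fixed for CD25+ or Foxp3+ Treg cells, Foxp3, Il2ra, Ikzf4 and Gpr83, summed to 312 to 336 RPM in GFPhi, 187 to 257 RPM in GFPmed and 141 to 154 RPM in GFPlo samples. These markers are also list members, and the part that a differing number of Treg cells or their precursors has in these changes was not tested.

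Few signalling and survival genes were DEG. Of 20 tested MAPK phosphatase, Sprouty, SPRED and RGS genes, Rgs16 and Dusp4 were higher DEG and none was lower. Dusp4, a nuclear MAPK phosphatase, had 7.01 ± 0.935 TPM in GFPhi and 2.05 ± 0.258 TPM in GFPmed samples (log2FC 1.39, adjusted p = 0.0248), and its call was lost when any of the 6 samples was left out. Dusp2 and Dusp6 differed in opposite directions short of the fold limit. Dusp2 had a log2FC of 0.90 (adjusted p = 0.00360) and Dusp6, which acts on ERK, one of -0.82 (adjusted p = 0.00421). Bcl3, encoding an atypical IkB protein that acts with NF-kB p50 and p52, was the single DEG of 17 tested NF-kB genes. It had 106, 131 and 124 TPM in GFPhi, 18.1, 13.6 and 18.1 TPM in GFPmed and 5.03, 2.24 and 3.66 TPM in GFPlo samples (upper step 2.79, adjusted p = 0.00171; lower step 1.96). Nfkbia had a log2FC of 0.48 (adjusted p = 0.0542). In the BCL2 family, 2 of 15 tested genes were higher DEG, Bcl2l11 and Bcl2a1d. Bcl2a1d, a pro-survival gene with near-identical copies among which reads may have been split, had 11.3 ± 1.17 and 4.43 ± 0.478 TPM (log2FC 1.18, adjusted p = 0.0335), and the call was lost when any GFPhi or GFPmed sample or GFPlo replicate 1 was left out. Bcl2 itself, added after its values were seen, had 19.9, 24.0 and 27.1 TPM in GFPhi and 45.3, 46.4 and 46.5 TPM in GFPmed samples (log2FC -0.94, adjusted p = 0.00984), just short of the fold limit. Mcl1 had 1026 ± 11.7 and 1064 ± 145 TPM.

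Of 24 tested egress, homing and maturation genes, 3 were higher and 2 lower DEG. S1pr1 (chromosome 3, 115710433 to 115715072), the receptor that guides mature thymocytes out of the thymus, had 231, 223 and 212 TPM in GFPhi, 23.6, 18.2 and 18.9 TPM in GFPmed and 9.39, 6.35 and 7.20 TPM in GFPlo samples. Its upper step was 3.40 (SE 0.15, adjusted p = 0.000137) and its lower step 1.3, with a difference of 2.10 (adjusted p = 0.0900). Klf2, which activates S1pr1 transcription, had 506, 586 and 519 against 202, 159 and 183 TPM (log2FC 1.57, adjusted p = 0.00116), and Klf3 had 54.3 ± 8.44 and 24.6 ± 1.47 TPM (log2FC 1.10, adjusted p = 0.00519, lost without GFPhi replicate 2). Ccr7, the receptor for entry into the medulla, had 341 ± 3.59 and 375 ± 8.66 TPM (adjusted p = 0.499). The lower DEG were Ccr9 and Ccr4, another chemokine receptor of the medulla, which had 56.3, 67.6 and 57.5 TPM in GFPhi, 164, 185 and 169.6 TPM in GFPmed and 191, 217 and 205 TPM in GFPlo samples (upper step -1.50, adjusted p = 0.000450; lower step -0.24, 95% interval -0.45 to -0.03).

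The falls included genes of earlier thymocyte stages and a cytokine receptor. Of 18 tested immature thymocyte genes, Id2, Cd8a and Satb1 were lower DEG and none was higher (list median -0.25). Id2 (chromosome 12, 25093799 to 25097140), encoding an inhibitor of E proteins, had 216, 273 and 228 TPM in GFPhi, 942, 1141 and 1031 TPM in GFPmed and 1317, 1616 and 1579.6 TPM in GFPlo samples. It was 4.35-fold lower in GFPhi than in GFPmed (log2FC -2.12, SE 0.12, adjusted p = 0.000374), and the lower step was -0.53 (95% interval -0.81 to -0.25). Its paralog Id3 went the other way, with 1172, 1513 and 1289 against 650.4, 786 and 779 TPM (log2FC 0.84, adjusted p = 0.0105), short of the fold limit. Satb1, a chromatin organizer of developing T cells, had 275, 309 and 295 against 642, 612 and 554 TPM (log2FC -1.04, SE 0.07, adjusted p = 0.000795), a call lost without GFPhi replicate 1 or GFPmed replicate 1. Cd8a had 7.15 ± 1.40 TPM in GFPhi and 16.7 ± 2.31 TPM in GFPmed samples (log2FC -1.13, adjusted p = 0.0279), and the call was lost without GFPhi replicate 1 or 3, any GFPmed replicate or GFPlo replicate 2. The CD8 lineage or double-positive markers moved with these genes (92.4 to 115 against 132 to 137 RPM), and their part in the falls was not tested. Tcf7, encoding TCF1, was level at 522 ± 29.1 and 523 ± 61.7 TPM.

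Il7r, encoding the alpha chain of the IL-7 receptor, had 52.9, 55.7 and 59.7 TPM in GFPhi, 169.9, 183 and 161 TPM in GFPmed and 182, 218 and 199 TPM in GFPlo samples. It was 3.05-fold lower in GFPhi than in GFPmed (log2FC -1.59, SE 0.09, adjusted p = 0.000351), and the lower step was -0.22 (95% interval -0.42 to -0.02). Of 22 tested cytokine receptor and SOCS genes, Il7r was the 1 lower DEG and Cish, a STAT5-induced suppressor, the 1 higher DEG (91.1 ± 15.7 against 38.1 ± 3.81 TPM, log2FC 1.23, adjusted p = 0.00967, lost without GFPmed replicate 2), while Il2rg was level with a log2FC of -0.19. Il17rb, a receptor chain for IL-25, had 19.8, 20.1 and 18.8 against 68.3, 60.1 and 65.3 TPM (log2FC -1.67, SE 0.08, adjusted p = 0.000201). Mmp9, a secreted gelatinase, had 6.10, 5.75 and 11.5 TPM in GFPhi and 49.3, 30.4 and 38.8 TPM in GFPmed samples (log2FC -2.24, SE 0.28, adjusted p = 0.00967). Adgrg3, an adhesion G-protein-coupled receptor, had 21.4 ± 1.51 TPM in GFPhi and 52.5 ± 0.929 TPM in GFPmed samples (log2FC -1.26), and its lower step was 0.00 (95% interval -0.21 to 0.21). The remaining large falls were Ctla2a, a cathepsin inhibitor, with a log2FC of -1.91, Dmwd with -1.71 and Myl10 with -1.68. The call of Ctla2a was lost without GFPhi replicate 1 or 3 or any GFPmed replicate, and that of Myl10 without GFPhi replicate 3, any GFPmed replicate or GFPlo replicate 2. With median-of-ratios scaling the calls of Adgrg3, Ctla2a, Dmwd and Myl10 were lost, and that of Dmwd also with quantile normalization.

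Of 15 tested lineage choice and helper factors, Bcl6, Myb, Eomes and Ikzf3 were higher DEG and none was lower, with a list median of -0.08 and 8 of 15 values below 0. Limma-voom called 5 higher and 1 lower. Bcl6, the factor of follicular helper cells, had 32.9, 45.2 and 33.9 TPM in GFPhi, 11.1, 9.5 and 10.1 TPM in GFPmed and 11.1, 8.57 and 8.30 TPM in GFPlo samples (upper step 1.76, adjusted p = 0.00282; lower step 0.13, 95% interval -0.25 to 0.52). Myb had 30.9, 39.7 and 35.6 TPM in GFPhi, 9.63, 8.79 and 10.5 TPM in GFPmed and 8.72, 7.67 and 8.23 TPM in GFPlo samples (upper step 1.77, adjusted p = 0.00120; lower step 0.21, 95% interval -0.10 to 0.52). Both genes were thus level below GFPmed within less than 2-fold. Ikzf3, encoding AIOLOS, had 26.4 ± 0.813 and 10.6 ± 0.954 TPM (log2FC 1.24, adjusted p = 0.00271). Eomes, from 0.513 to 5.13 TPM in these 6 samples, passed narrowly (log2FC 1.43, adjusted p = 0.0421) and was lost whenever any of the 9 samples was left out. The CD4 lineage factors Zbtb7b (log2FC -0.53, adjusted p = 0.256) and Gata3 (log2FC -0.49, adjusted p = 0.114) were not DEG.

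The remaining lists held few or no DEG. None of the 27 TCR complex and proximal signalling genes was a DEG (list median 0.02), and none was called by limma-voom. Of the 27, 11 had an unadjusted limma p under 0.05, against 3196 of the 28594 genes tested. Cd3e had 1085 ± 104 TPM in GFPhi and 1198 ± 29.2 TPM in GFPmed samples. None of 22 tested MYC, glycolysis and nutrient transport genes was a DEG in limma (9 at an unadjusted p under 0.05, none by limma-voom). Of these 22, 17 had a negative log2FC (list median -0.19, against -0.07 over all genes tested). The enolase gene Eno3, a higher DEG given above, is not a member of this list. Of 24 cell cycle and DNA replication genes, 21 had a positive log2FC (list median 0.36) and the cyclin genes Ccnb2 (log2FC 1.19, adjusted p = 0.0236) and Ccne1 (log2FC 1.16, adjusted p = 0.0148) were higher DEG, while limma-voom called 8. Both calls were lost without GFPhi replicate 2 or 3 or any GFPmed replicate, and that of Ccnb2 also without GFPlo replicate 2. Of 22 interferon-stimulated genes, 19 had a positive log2FC (list median 0.42) and the only DEG was Ifi27l2a (log2FC 1.5, adjusted p = 0.0384), with 1151, 903 and 1066 TPM in GFPhi and 414, 277 and 429.9 TPM in GFPmed samples. The Ifi27l2a call was lost when any sample but GFPlo replicate 2 was left out.

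**Figure D5:**
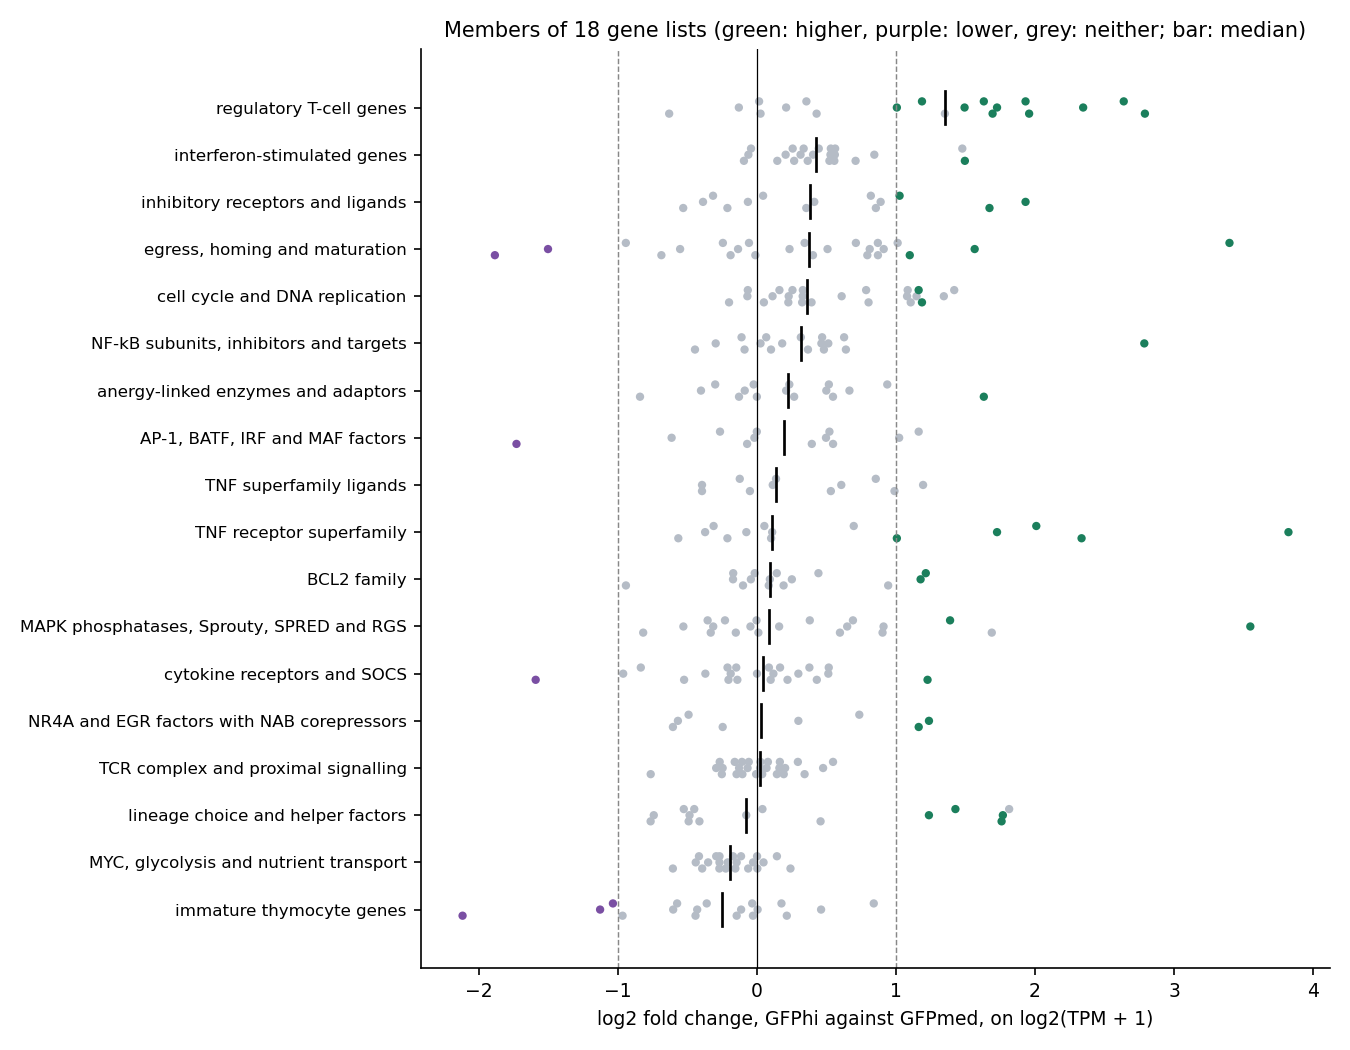
Log2FC of GFPhi against GFPmed (horizontal axis, dashed lines at -1 and 1) for the tested members of 18 gene lists, ordered by list median (bar), with higher DEG in green, lower DEG in purple and other members in grey. The list of Treg genes has the highest median (1.35, with 11 of 19 higher) and the list of immature thymocyte genes the lowest (-0.25, with 3 of 18 lower).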

How the data were processed

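RNA of 9 sorted samples was sequenced, 3 each of GFPlo, GFPmed and GFPhi. The authors trimmed the reads, aligned them to GRCm38 with STAR (2.7.11b in the submitters' processing notes), discarded duplicate read copies, tallied the reads of each gene and deposited 1 table with a TPM column for each sample. Duplicate removal can lower the values of short, abundant transcripts most. Its other columns hold the authors' group means, fold changes, adjusted p-values and call flags, and were not used. No sample column was left unused (0).

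The length behind the TPM equalled, within 1%, the average span on the genome over the transcripts of a gene in GENCODE vM21 for 98.0% of genes, introns included, so levels of different genes are not compared. TPM values are whole multiples of the value of 1 read. Reads were solved from these steps for 41962 genes. Only genes whose values came out whole were kept, so the 100% of values whole (tolerance 0.0001) is no check of the solution. The reads were amplified without molecular identifiers.

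Genes with TPM of at least 1 in 3 of the 6 GFPhi and GFPmed samples were tested on log2(TPM + 1) with limma 3.58.1 (R 4.3.3), in 1 fit of all 9 samples with eBayes and trend, and Benjamini-Hochberg adjustment over all genes. Intervals are 95% from that fit. The fit was tested on simulated data. Groups came from the labels. The deviations of same-numbered samples had an r over 0.1 in 1 of 9 pairs only, so numbers were not used as pairs. The r was small but positive in all 9, from 0.0143 to 0.237, against a mean of -0.0316 in other pairs. Whether the numbers mark a shared origin is not given in the sources used here.

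Genes named are the NR4A genes and Bcl2l11, the 10 largest rises and 8 largest falls among DEG without overlap and a mean TPM of at least 5, leaving out predicted names, pseudogenes, small RNAs and receptor segments, the 5 smallest p of the step difference in each direction, up to 6 DEG and the 2 most abundant other members of each list, and sort markers. Neighbours of DEG, genes that complete a count and those so marked were added after their values were seen. Genes and lists were chosen with earlier results of these data known. Alternatives were another pseudocount, other filters, median-of-ratios and quantile scaling, the 6 samples alone, no trend, a replicate block, no fold limit, limma-voom on the solved reads and each sample left out. Promoter windows are RefSeq's (GRCm38.p6).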

Additional observations from a re-analysis of the deposited data

Results flagged for a closer look

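In 6 genes the upper step differed from the lower step by the test of the difference itself in limma (adjusted p of at most 0.05 over 28594 genes). Every GFPhi sample lay beyond every GFPmed sample in Rln3, Arhgap20 and Ccr9, but for Rln3 the filter alone set this order. The difference on log2(TPM + 1) was 5.04 for Rln3 (adjusted p = 0.0249), 3.69 for Arhgap20 (adjusted p = 0.0393) and -1.43 for Ccr9 (adjusted p = 0.0139). It was 8.56 for Mir451b (adjusted p = 0.0361), a microRNA gene with 2 or 3 reads in each GFPhi sample, 0 in each GFPmed sample and 1 to 3 in each GFPlo sample. It was -4.95 for the pseudogene Gm13314 (adjusted p = 0.0089), with 2 or 3 reads in each GFPmed sample and 0 in all others. It was -5.53 for the small nuclear RNA gene Gm22783 (adjusted p = 0.0139), with 2 to 4 reads in each GFPmed sample, 1 in each GFPhi sample and 0 in each GFPlo sample. The values of these last 3 genes depend on the pseudocount and are not fold changes. With limma-voom on the reads, Rln3 (adjusted p = 0.0419), Arhgap20 (adjusted p = 0.000475) and Ccr9 (adjusted p = 1.02e-06) passed and the other three did not. With the replicate number as a block no step difference passed (0 rises and 0 falls). Leaving out GFPhi replicate 3, GFPmed replicate 1 or GFPmed replicate 3 also took both counts to 0.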

How the results depend on the processing

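Of 87 named genes tested, none of the DEG reversed its sign under any alternative, and the sign of the others was not followed. The state of a gene, called or not called, stayed the same in 1504 values. A call was lost in 134 values of 21 genes and gained in 7 values of 7 genes. Under median-of-ratios scaling 95 genes were higher and 20 lower, 1 fall was steeper in the upper step, and 44 rises and 11 falls had a lower step within 2-fold. The median log2FC of all genes was -0.02 there, -0.07 as reported and 0.00 with quantile normalization. The Nr4a1 call was lost under median-of-ratios scaling (log2FC 1.22, adjusted p = 0.0739), as were those of Nr4a3, Jun, Adgrg3, Ctla2a, Dmwd, Myl10, Bcl2a1d, Tnfrsf18, Pdcd1, Dusp4, Klf3, Cd8a, Satb1, Eomes, Ccnb2, Ccne1 and Ifi27l2a. Quantile normalization gave 5 steeper rises and 5 steeper falls, and a pseudocount of 0.1 gave 5 and 6, with 65 rises whose lower step was within 2-fold. Without a fold limit 292 genes were higher and 206 lower, with 217 and 193 of them within 2-fold in the lower step. Limma-voom gave 264 higher and 78 lower genes, 33 and 21 steeper ones and 91 rises and 60 falls within 2-fold. Blocking on the replicate number gave 133 higher and 38 lower genes, and 128 and 33 of these were also called without the block, while no step difference passed (0 rises and 0 falls). The 9 same-numbered pairs had a mean r of 0.0632, from 0.0143 to 0.237, and 18 other pairs -0.0316. Leaving out each sample gave 79 to 165 higher and 24 to 64 lower genes, 0 to 3 steeper rises, 0 to 4 steeper falls, 44 to 84 rises and 19 to 41 falls with a lower step within 2-fold. The cause of these changes was not tested, beyond the smaller number of samples. The share of higher genes among the calls was 65.2%, 66.9% and 66.9% without GFPhi replicates 1, 2 and 3, against 78.5%. Reads limit genes of low TPM, and 3 samples a group allow no exact permutation p below 0.1.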

Other observations

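Other DEG outside the fixed lists were looked up after their values were seen. Among them, Xcl1 was under a TPM of 1 in every GFPmed sample, so the filter alone set the order of its groups. Higher in GFPhi were Xcl1, a chemokine that attracts cross-presenting dendritic cells, with 6.73, 5.18 and 4.61 TPM in GFPhi and 0.512, 0.332 and 0.589 TPM in GFPmed samples (log2FC 2.13, adjusted p = 0.0125), and Kit, the stem cell factor receptor, with 9.74, 14.9 and 8.89 against 1.92, 1.04 and 1.35 TPM (log2FC 2.30, adjusted p = 0.0169). Gfi1, a transcriptional repressor, had 33.0, 35.4 and 44.1 TPM in GFPhi, 13.9, 8.39 and 8.43 TPM in GFPmed and 8.25, 10.0 and 12.1 TPM in GFPlo samples, and so moved in the upper step alone by value (1.80 against -0.01). The difference of its steps missed the threshold (adjusted p = 0.465). P2rx7, encoding an ATP-gated channel, had 17.8 ± 2.08 and 7.28 ± 0.827 TPM (log2FC 1.18, adjusted p = 0.0107), and S1pr4, a second sphingosine-1-phosphate receptor, had 93.7 ± 12.99 and 31.8 ± 2.10 TPM (log2FC 1.53, adjusted p = 0.00140). Lower in GFPhi were Itm2a, a membrane protein gene of selected thymocytes, with 1375, 1744 and 1448 against 3042, 3479 and 3453 TPM (log2FC -1.13, adjusted p = 0.00397), and the integrin chain Itgb3, with 32.5, 35.02 and 33.8 against 79.0, 73.7 and 64.9 TPM (log2FC -1.08, adjusted p = 0.00137).

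Several DEG overlapped another DEG on the opposite strand, as did Arhgap20 and Arhgap20os, Rgs16 and Gm28513, Myb and Gm26577, and Bcl6 and Gm37419, all higher. Without a stated strand setting their reads cannot be told apart.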
